A study of Mus musculus with 6 samples.

Results

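The GABA synapse genes were 26 genes of the 55421 in the table of estimated counts, taken by gene symbol. The genes were chosen with earlier results of these data known, so they were not tested as a set. They comprise 9 subunits and 2 auxiliary proteins of the GABAA receptor, 5 genes of the GABAB receptor complex, 5 genes that make, move or break down GABA, 3 scaffold genes of inhibitory synapses and 2 chloride cotransporters. The study asked what repeated peripheral exposure to substance P (SP), a neuropeptide of the tachykinin family, does to the hippocampus. Wild-type male C57BL/6N mice aged 8 to 10 weeks received subcutaneous SP (10 µM, 100 µL) daily over 14 days, or an equal volume of saline as the vehicle. Hippocampal RNA of 3 mice of each group was sequenced as stranded mRNA libraries, 1 library a mouse. None of the 26 genes passed the thresholds for a differentially expressed gene, and their summed expression lay between 4354 and 4457 CPM in all 6 libraries, CPM being the count of a gene scaled to a common library size by edgeR's cpm function.

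GABA is the main inhibitory transmitter of the adult brain. It is made from glutamate in interneurons, packed into vesicles, and acts on GABAA receptors, which are chloride channels of 5 subunits, and on GABAB receptors, which signal through G proteins. In the hippocampus, GABAA receptors give fast inhibition at synapses, held there by a gephyrin scaffold, and tonic inhibition outside them, and the direction of the chloride current depends on cotransporters that set the chloride level of the cell.

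Some libraries stood apart in markers of cell types. Summed choroid plexus markers (8 genes, led by the transthyretin gene *Ttr*) were at 4.23% of the vehicle mean in SP 1, and all 8 were lowest there. In SP 2 the summed markers of GABAergic interneurons (17 genes) were at 79.9%. Other marker sums differed in more than 1 library. Those of cortical layers and subplate (6 genes) were at 83.3%, 69.6% and 91.1% of the vehicle mean in SP 1, 2 and 3, below all vehicle libraries. Those of oligodendrocytes (7 genes) were at 119%, 161% and 110.1% and those of CA3 pyramidal cells (4 genes) at 108%, 128% and 115%, above all vehicle libraries. Those of dentate granule cells (5 genes) were at 128%, 150.4% and 89.8%. In vehicle 2, those of thalamic neurons (5 genes) were at 129%, beside 82.9% and 87.8% in vehicle 1 and 3. The groups are named as the libraries were labelled, since none of the 26 genes can check the labels. Every gene of the dentate granule, CA1 and CA3 marker lists was over 3 counts in all 6 libraries. The same held for every gene of the cortical, thalamic, striatal and choroid plexus lists, so this does not check the labelled tissue. In bulk tissue, fewer cells of a type and less RNA per cell cannot be told apart. Library totals were 22349941 to 27605937 counts, and each of the 26 genes had between 102 and 18502 counts in every library.

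The genes covered a wide range of levels. Per kilobase of annotated exon, the vehicle mean ran from 1.84 CPM per kb for *Gabrg3*, a gamma subunit of the GABAA receptor, to 85.3 for *Gabbr1*, the ligand-binding subunit of the GABAB receptor. After *Gabbr1* came *Slc12a5*, the neuronal chloride exporter, at 64.2 CPM per kb, *Gabra5* at 58.0, *Gabbr2* at 47.7 and *Nlgn2* at 41.5. The first 4 of these were each apart from the next over the 3 vehicle libraries, while *Nlgn2* overlapped *Gad1* (38.8), and *Gad1*, *Abat* (36.4), *Shisa7* (35.9) and *Slc6a11* (30.9) each overlapped the gene after it or before it. With the longest transcript as the length, 3 of the 5 highest genes were again among the 5 highest, and *Gad1* and *Abat* took the places of *Gabbr2* and *Nlgn2*.

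In the middle of the range stood *Kctd12* (27.1 CPM per kb), *Gabra2* (24.5), *Gad2* (23.9), *Slc32a1* (21.5), *Lhfpl4* (18.5), *Gabra3* (18.0), *Gphn* (18.0), *Gabrb1* (15.6), *Gabra4* (14.8), *Iqsec3* (14.4) and *Gabrb2* (13.0). Within that stretch the vehicle ranges of neighbours overlapped for *Gabra2* and *Gad2*, *Gad2* and *Slc32a1*, *Lhfpl4* and *Gabra3*, *Gabra3* and *Gphn*, and *Gabra4* and *Iqsec3*. *Slc12a2* (9.71) and *Gabrd* (7.12) were lower and apart from their neighbours. *Kctd16* (2.88) overlapped *Gabrg1* (2.64), and *Kctd8* (2.02) overlapped *Gabrg3*, at the bottom of the order.

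**Figure D1:**
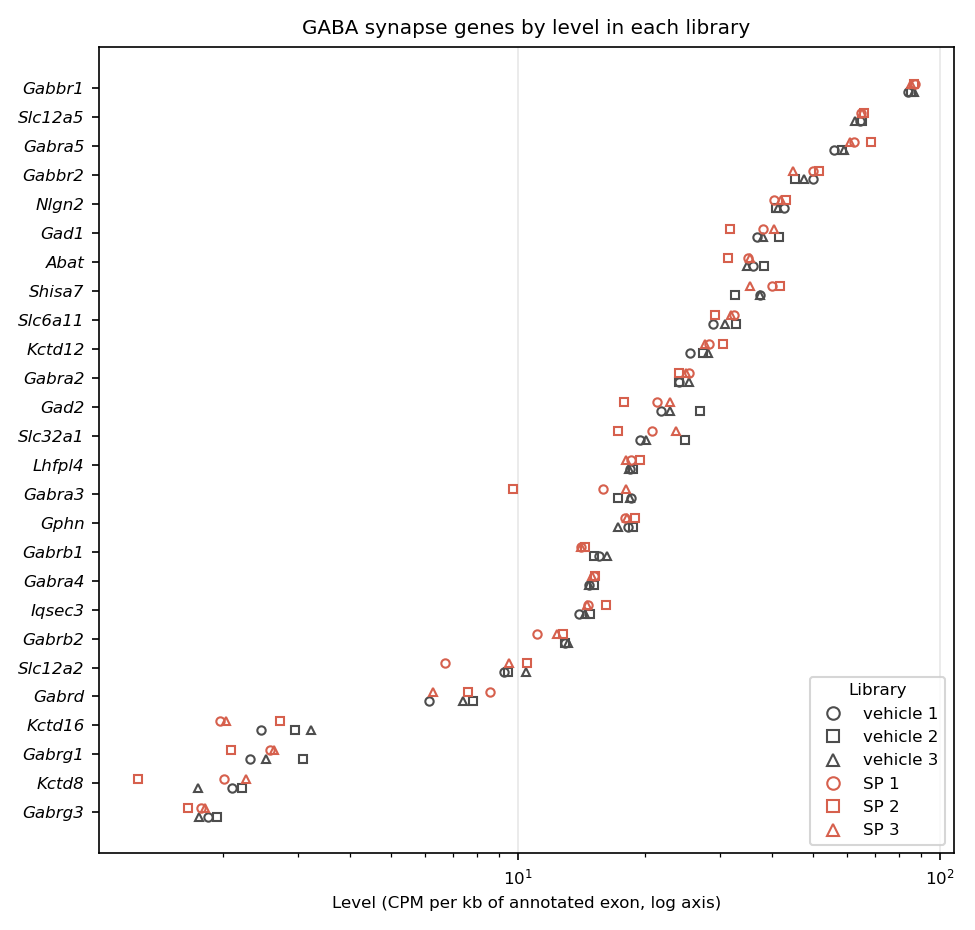
Expression of the 26 GABA synapse genes in each of the 6 libraries, in CPM per kb of annotated exon on a log axis, with genes ordered by the vehicle mean. Grey symbols are vehicle libraries, red symbols are libraries labelled SP, and the shape gives the replicate number. *Gabbr1* stands at the top near 85.3 CPM per kb, and the red square of SP 2 lies far to the left of the other libraries for *Gabra3* and *Kctd8*.

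The comparison of libraries labelled SP with vehicle asked which of these genes differed after the injections. By edgeR's quasi-likelihood test with the replicate number as a block, 0 of 26 genes were called at FDR < 0.1 and |log2FC| > 0.3, beside 5 of all 17069 genes tested (0.0293%), and the lowest FDR among the 26 was 0.426. The fitted log2FC, SP minus vehicle, was positive for 14 genes and negative for 12, with a median of 0.0094, beside 0.0015 over all genes tested. For 15 of them it was under 0.1 in size and for 23 under 0.2.

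At an unadjusted p under 0.05, 1 gene was higher (3.85%, beside 4.48% of all genes tested) and 3 were lower (11.5%, beside 5.59%). In fits with no block, 1 gene was higher and 2 were lower over all 6 libraries. Those counts were 1 and 1 without SP 1, and 0 and 3 without SP 2. The libraries of the groups did not overlap for 1 gene that was higher (3.85%, beside 9.19%) and 2 that were lower (7.69%, beside 9.03%). The 95% interval of the log2FC lay inside ±0.3 for 17 of the 26 genes. Their median standard error was 0.0660, beside 0.0906 over all genes tested.

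Other tools called 0 of the 26 as well. DESeq2 with the block called 0.211% of the genes tested and had none of the 26 at an unadjusted p under 0.05, in either direction. DESeq2 with no block called 0.79% and limma-voom called 0.0117%, and each had 1 of the 26 higher and 3 lower at that p. For these tools the share of all genes tested at that p was not counted. With no filter on low counts edgeR called 1.37% of the 28039 genes with a count, and *Gabra3* was then called, at a log2FC of -0.36 and FDR = 0.0890.

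**Figure D2:**
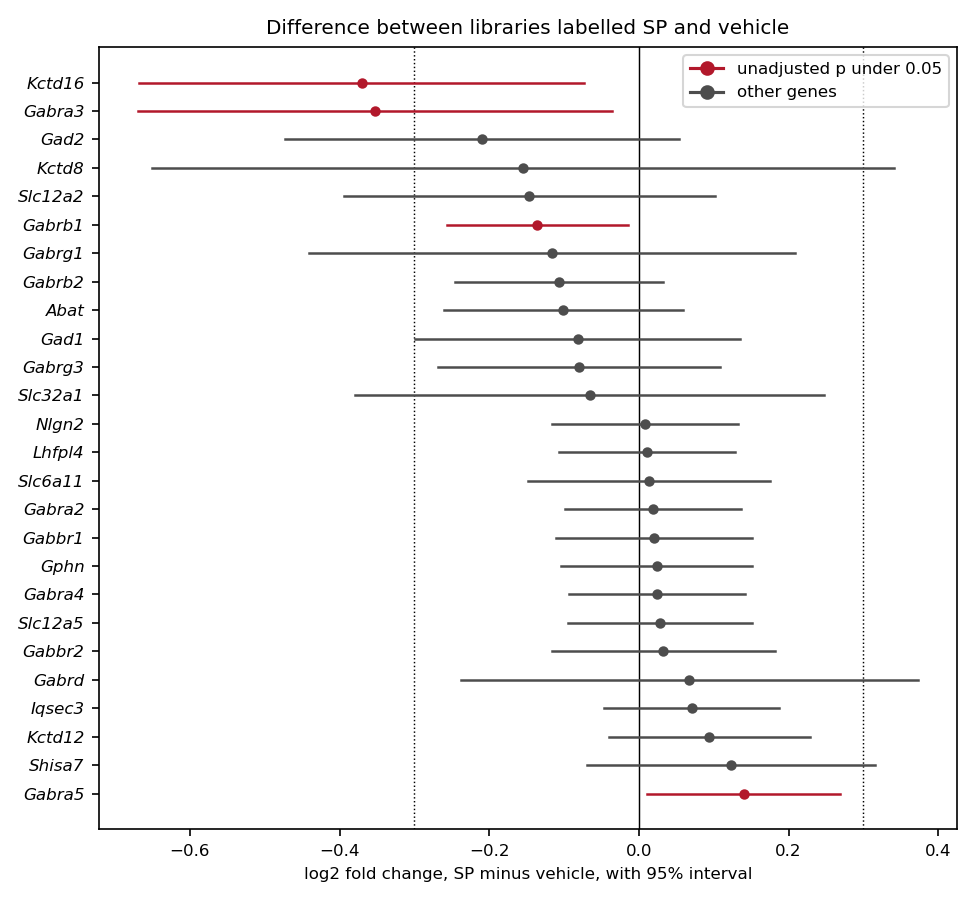
Fitted log2 fold change (SP minus vehicle) of each of the 26 genes, with its 95% interval, in order of size. Dotted lines mark the fold change threshold of 0.3 in either direction, and red marks the 4 genes with an unadjusted p under 0.05. Every interval drawn in grey crosses 0, and the widest is that of *Kctd8*.

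Of the GABAA receptor subunits, *Gabra5* was higher and *Gabrb1* lower in every library labelled SP, and neither met the FDR threshold. *Gabra5* (ENSMUSG00000055078, GRCm38 chr7:57407672-57510059, minus strand) encodes alpha5, the subunit of tonic inhibition in hippocampal pyramidal cells. It had 167, 174 and 176 CPM in vehicle 1, 2 and 3, and 186, 204 and 182 CPM in SP 1, 2 and 3. All SP values lay above all vehicle values, and SP 2 was the highest. The means were 173 ± 4.94 and 190.4 ± 11.8 CPM (SD, n = 3), and the log2FC was 0.14 (SE 0.0552, 95% interval 0.011 to 0.27, unadjusted p = 0.0372, FDR = 0.462 by edgeR). Leaving out SP 2 gave 0.090 in a fit with no block. That library had low interneuron and cortical marker sums and the highest dentate granule, oligodendrocyte and CA3 sums. The part of these markers in the *Gabra5* value was not tested.

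*Gabrb1* (ENSMUSG00000029212, GRCm38 chr5:71658113-72149037, plus strand) encodes the beta1 subunit. Its vehicle libraries had 215, 209 and 224 CPM and its SP libraries 195, 199 and 195 CPM. The 3 SP values lay within a narrow band below the vehicle values. Means were 216 ± 7.72 and 196 ± 2.31 CPM (SD, n = 3), with a log2FC of -0.14 (SE 0.0516, 95% interval -0.26 to -0.015, unadjusted p = 0.0322, FDR = 0.451 by edgeR). It was between -0.17 and -0.11 when each replicate number was left out in turn. The annotated span of *Gabrb1* overlaps that of *Gabra4*, on the opposite strand, over 196 bases (chr5:71658113-71658308), and the strand setting of the counting is not given in the sources used here.

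*Gabra3* (ENSMUSG00000031343, GRCm38 chrX:72432681-72656848, minus strand) encodes alpha3, a synaptic subunit. It had 72.5, 67.5 and 72.3 CPM in the vehicle libraries and 62.3, 38.1 and 70.6 CPM in those labelled SP. SP 2 alone was far down, at 53.8% of the vehicle mean, while SP 3 overlapped the vehicle range. The log2FC was -0.35 (SE 0.135, 95% interval -0.67 to -0.036, unadjusted p = 0.0335, FDR = 0.456 by edgeR). It was -0.13 without replicate number 2, and -0.092 without SP 2 alone in a fit with no block. With no block its unadjusted p was 0.111, and 0.235 in DESeq2 with no block. The summed cortical and subplate markers were below all vehicle libraries in the 3 SP libraries and lowest in SP 2. Groups were apart and lower for 4 of the 6 genes (66.7%, beside 9.03% of all genes tested). The sum was 182 to 187 CPM in the vehicle libraries and 128 CPM in SP 2. Its largest fall in SP 2 was in *Tshz2*, at 22.3 CPM beside a vehicle mean of 65.0. *Cplx3* of the same list went the other way and was highest in SP 2, at 9.34 CPM beside a vehicle mean of 6.55. The part of these markers in the *Gabra3* value was not tested.

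*Kctd16* (ENSMUSG00000051401, GRCm38 chr18:40256962-40531630, plus strand) encodes an auxiliary subunit of the GABAB receptor. It had 8.55, 10.3 and 11.2 CPM in the vehicle libraries and 6.82, 9.46 and 7.05 CPM in those labelled SP. Each SP library was below the vehicle library of its number, but SP 2 was above vehicle 1. With a log2FC of -0.37 (SE 0.127, 95% interval -0.67 to -0.073, unadjusted p = 0.0212, FDR = 0.426 by edgeR) it had the lowest fitted value of the 26 genes, and it ranged from -0.50 to -0.22 as replicate numbers were left out.

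**Figure D3:**
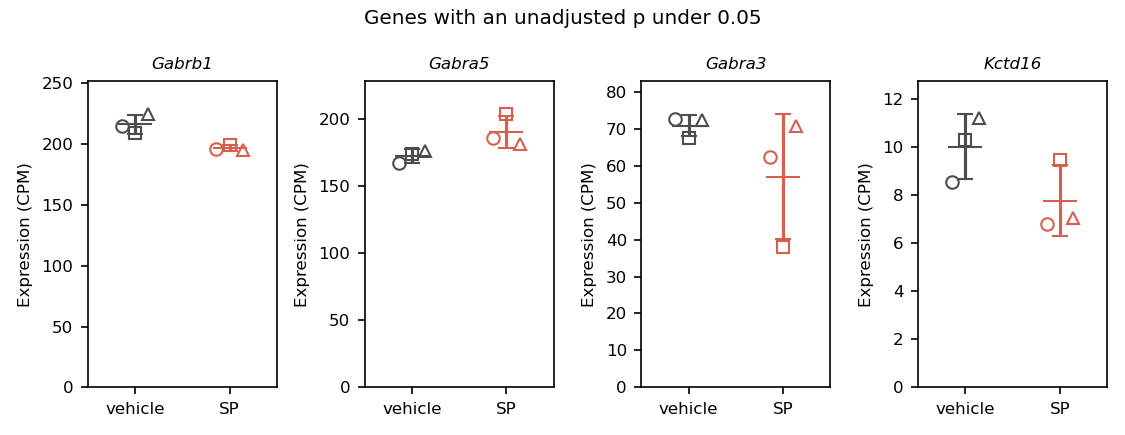
Expression (CPM, linear axis from 0) of the 4 genes with an unadjusted p under 0.05, for each library, with the mean and SD of each group (n = 3). Circles, squares and triangles are replicate numbers 1, 2 and 3. The groups are apart for *Gabrb1* and *Gabra5* and overlap for *Gabra3* and *Kctd16*, and the SP 2 square is the low point of *Gabra3*.

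The 250 bases before a RefSeq start site (GRCm38.p6) are shown for the 3 receptor subunits above, because they had an unadjusted p under 0.05 among the GABAA receptor subunits listed, and each window is free of coding-gene exons. Capitals mark matches to TATAAA or CCAAT on either strand, the reverse forms being TTTATA and ATTGG.
Gabra5, chr7:57510060-57510309, minus strand: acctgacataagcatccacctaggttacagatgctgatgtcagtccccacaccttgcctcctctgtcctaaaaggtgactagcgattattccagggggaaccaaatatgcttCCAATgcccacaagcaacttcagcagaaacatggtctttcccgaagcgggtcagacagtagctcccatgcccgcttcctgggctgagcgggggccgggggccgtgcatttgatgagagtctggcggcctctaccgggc
Gabra3, chrX:72656920-72657169, minus strand: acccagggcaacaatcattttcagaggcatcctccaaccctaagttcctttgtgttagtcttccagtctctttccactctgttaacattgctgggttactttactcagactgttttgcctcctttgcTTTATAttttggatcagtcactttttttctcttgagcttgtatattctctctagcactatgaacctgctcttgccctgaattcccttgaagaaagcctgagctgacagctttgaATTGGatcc
Gabrb1, second start, chr5:71699682-71699931, plus strand: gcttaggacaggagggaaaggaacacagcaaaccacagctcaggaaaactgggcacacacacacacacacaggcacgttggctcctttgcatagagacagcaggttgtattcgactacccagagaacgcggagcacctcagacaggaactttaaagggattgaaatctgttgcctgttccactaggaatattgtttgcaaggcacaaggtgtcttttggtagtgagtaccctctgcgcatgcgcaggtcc

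The *Gabra3* window held TATAAA and CCAAT once each, the *Gabra5* window held CCAAT once, and the *Gabrb1* window, which overlaps an exon of the antisense transcript gene *Gm38562*, held none of the motifs searched. Windows were used for 22 of the 26 genes, 27 windows in all. No window on chromosome 18, where *Kctd16* and *Slc12a2* lie, was taken. TATAAA was in 4 of them (12.4% of all 32851 windows of the same length), CCAAT in 10 (33.8%), GGGCGG in 15 (32.7%), TGACGTCA in 1 (1.55%), that of *Kctd8*, and GCGTGGGCG in 0 (0.536%), each searched on both strands. The median GC content was 62.4% over the 27 windows and 52.4% over all. The *Gabra3* window shown overlaps another window of that gene among the 27, so its TATAAA and CCAAT matches were counted in both. The matches describe letters and are not evidence of a bound factor.

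The other alpha subunits were close between groups. *Gabra2*, a synaptic subunit, had 184, 184 and 194 CPM in vehicle 1, 2 and 3 and 194, 184 and 191 CPM in SP 1, 2 and 3, with a log2FC of 0.019 (95% interval -0.099 to 0.14). *Gabra4*, which pairs with the delta subunit in dentate granule cells, had 89.6, 91.9 and 89.5 CPM against 91.9, 92.6 and 91.0 CPM, a log2FC of 0.024 (95% interval -0.093 to 0.14). The groups overlapped for both genes.

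As a description, *Gabra5* made up 50.3 ± 0.732% (SD, n = 3) of the summed CPM per kb of *Gabra2*, *Gabra3*, *Gabra4* and *Gabra5* in vehicle libraries, and 52.6%, 58.3% and 51.3% in SP 1, 2 and 3. *Gabra3* made up 15.6 ± 0.666% in vehicle libraries, and 13.4%, 8.25% and 15.1% in SP 1, 2 and 3. SP 2 stood apart in both shares. The shares of *Gabra2* were 21.2 ± 0.330% in vehicle libraries and 20.96 ± 0.429% in those labelled SP, and the shares of *Gabra4* were 12.9 ± 0.345% and 12.7 ± 0.196%.

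*Gabrb2*, the beta2 subunit of many synaptic receptors, had 82.0, 82.3 and 83.5 CPM in the vehicle libraries and 70.5, 81.2 and 78.7 CPM in SP 1, 2 and 3. All SP values lay below all vehicle values, with SP 1 the lowest. Its log2FC was -0.11 (95% interval -0.25 to 0.032), which did not pass the test (unadjusted p = 0.113, FDR = 0.589 by edgeR). It was -0.047 without SP 1 alone in a fit with no block, and -0.052 and -0.15 without replicate number 1 and 2, the latter with an unadjusted p of 0.0385 by edgeR.

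The gamma and delta genes were the least abundant GABAA subunits here per kb. *Gabrg1*, a gamma subunit, had 18.2, 24.3 and 19.9 CPM and 20.3, 16.4 and 20.7 CPM in the vehicle and SP libraries, and *Gabrg3*, another, had 21.96, 23.0 and 20.9 CPM and 21.1, 19.6 and 21.6 CPM. SP 2 was the lowest library and vehicle 2 the highest for both. Their log2FC values were -0.12 (95% interval -0.44 to 0.21) and -0.080 (95% interval -0.27 to 0.11). *Gabrd*, the delta subunit of tonic receptors, had 17.7, 22.5 and 21.2 CPM in the vehicle libraries and 24.6, 21.8 and 18.1 CPM in those labelled SP. It was lowest in vehicle 1 and highest in SP 1, and its interval, -0.24 to 0.37, passed the 0.3 threshold on the upper side.

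*Shisa7* and *Lhfpl4* encode proteins that associate with the receptor, and the latter joins it to neuroligin-2. *Shisa7* had 249, 217 and 249 CPM in the vehicle libraries and 266, 278 and 235 CPM in SP 1, 2 and 3, with a log2FC of 0.12 (95% interval -0.070 to 0.31, FDR = 0.655 by edgeR). SP 2 was the highest library, but SP 3 was below vehicle 1 and 3, and the log2FC was 0.0050 without replicate number 2 and 0.22 without number 3. *Lhfpl4* had 107, 109 and 106 CPM and 108, 113 and 105 CPM, and a log2FC of 0.011 (95% interval -0.11 to 0.13).

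The GABAB receptor needs both of its subunits at the cell surface. *Gabbr1* had 653, 663 and 671 CPM in the vehicle libraries and 676, 675 and 663 CPM in those labelled SP, with a log2FC of 0.020 (95% interval -0.11 to 0.15). *Gabbr2*, the subunit that couples to the G protein, had 334, 304 and 318 CPM and 334, 345 and 299 CPM, with a log2FC of 0.033 (95% interval -0.12 to 0.18). The groups overlapped for both, and SP 3 was the lowest library for *Gabbr2* and SP 2 the highest.

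The KCTD proteins bind the receptor and shape how fast its response fades. *Kctd12*, the most abundant of the 3 per kb, had 155, 166 and 171 CPM in the vehicle libraries and 172, 186 and 168 CPM in those labelled SP. The groups overlapped, and the log2FC was 0.094 (95% interval -0.040 to 0.23, FDR = 0.620 by edgeR), 0.050 without SP 2 alone in a fit with no block and 0.15 without replicate number 3. *Kctd8* had 7.09, 7.48 and 5.88 CPM and 6.78, 4.23 and 7.63 CPM, with SP 2 at 62.1% of the vehicle mean and SP 3 above all vehicle libraries. Its log2FC of -0.155 had the widest interval of the 26 genes, -0.65 to 0.34, and was 0.16 without replicate number 2. *Kctd16* is given above.

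Genes of GABA synthesis and vesicular transport were lowest in SP 2 and highest in vehicle 2. *Gad1*, which encodes a glutamate decarboxylase that makes GABA, had 281, 317 and 290.1 CPM in the vehicle libraries and 290.5, 243 and 309 CPM in SP 1, 2 and 3. *Gad2*, which encodes the decarboxylase of nerve terminals, had 128, 159 and 135 CPM and 126, 105 and 134 CPM. *Slc32a1*, the vesicular GABA transporter, had 54.5, 69.6 and 56.1 CPM and 58.1, 48.3 and 66.1 CPM. SP 3 was above the vehicle mean for *Gad1* and *Slc32a1* and below it for *Gad2*, and the groups overlapped for all 3 genes.

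The log2FC was -0.21 for *Gad2* (SE 0.112, 95% interval -0.47 to 0.054, FDR = 0.575 by edgeR), -0.082 for *Gad1* (95% interval -0.30 to 0.14) and -0.066 for *Slc32a1* (95% interval -0.38 to 0.25). Without SP 2, in a fit with no block, these were -0.11, 0.018 and 0.047, and without replicate number 2 in the blocked fit they were -0.016, 0.070 and 0.16. In SP 2, *Gad1*, *Gad2* and *Slc32a1* were at 81.9%, 74.6% and 80.3% of the vehicle mean, beside 79.9% for the summed interneuron markers. Of those 17 markers, 13 were lowest in SP 2 and none was at 3 counts or fewer in any library. At an unadjusted p under 0.05, 2 of the 17 were lower, *Erbb4* (log2FC -0.35) and *Vip* (-0.34), which is 11.8% beside 5.59% of all genes tested, and 0 higher. The marker sum was 614 to 623 CPM in the vehicle libraries and 615, 493 and 608 CPM in SP 1, 2 and 3. In vehicle 2, *Gad1*, *Gad2* and *Slc32a1* were at 107%, 113% and 116%, while the marker sum was at 101%. Single markers of the list did not all follow the sum there, and the summed thalamic markers were at 129%. The part of the interneuron content in these values was not tested.

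**Figure D4:**
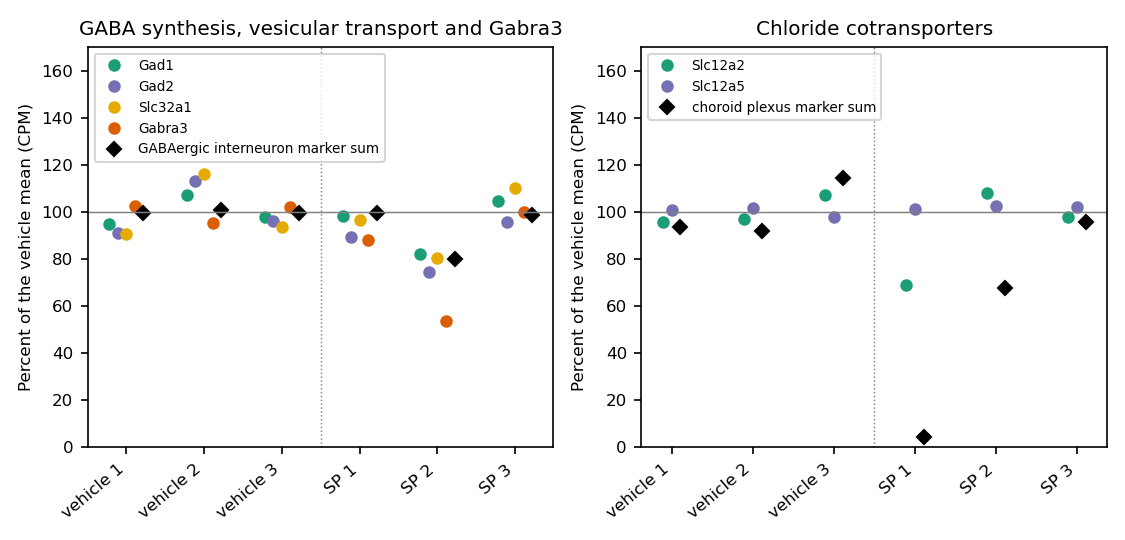
Expression in each library as a percent of the vehicle mean (CPM), for *Gad1*, *Gad2*, *Slc32a1* and *Gabra3* beside the summed interneuron markers (left), and for the chloride cotransporters beside the summed choroid plexus markers (right). Points are single libraries and black diamonds are marker sums. In SP 2 the left-hand genes and the interneuron sum all lie below 100%, and in SP 1 *Slc12a2* and the choroid plexus sum lie at 69.0% and 4.23%.

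*Slc6a11* encodes a GABA transporter of astrocytes and *Abat* the transaminase that breaks GABA down. *Slc6a11* had 146, 166 and 156 CPM in the vehicle libraries and 164, 148 and 161 CPM in those labelled SP, with a log2FC of 0.014 (95% interval -0.15 to 0.18). Summed astrocyte markers were at 105%, 101% and 97.5% of their vehicle mean in SP 1, 2 and 3. *Abat* had 278, 296 and 271 CPM and 272, 243 and 274 CPM, lowest in SP 2 at 86.3% of the vehicle mean, and a log2FC of -0.10 (95% interval -0.26 to 0.058, FDR = 0.656 by edgeR), which was -0.0092 without replicate number 2 and -0.047 without SP 2 alone in a fit with no block.

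Neither chloride cotransporter passed the test, and 1 library stood apart for *Slc12a2*. *Slc12a5* had 481, 486 and 468 CPM in vehicle 1, 2 and 3 and 485, 491 and 487 CPM in SP 1, 2 and 3. Each SP library was above its numbered vehicle library, but the groups overlapped, and the log2FC was 0.028 (95% interval -0.095 to 0.15). *Slc12a2*, the chloride importer of neurons and glia that is also strong in choroid plexus epithelium, had 101, 103 and 114 CPM and 73.2, 115 and 104 CPM. SP 1 was far below the rest, at 69.0% of the vehicle mean, while SP 2 was the highest library.

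The log2FC of *Slc12a2* was -0.15 (SE 0.106, 95% interval -0.39 to 0.10, FDR = 0.682 by edgeR), and without SP 1 it was 0.041 in a fit with no block. The choroid plexus marker sum was 3810 to 4751 CPM in the vehicle libraries and 176, 2813 and 3970 CPM in SP 1, 2 and 3, and at an unadjusted p under 0.05, 3 of its 8 genes were lower (*Kcnj13*, *Clic6* and *Kl*, named after their values were seen), which is 37.5% beside 5.59% of all genes tested. None of the 8 was at 3 counts or fewer in any library. The part of choroid plexus tissue in the *Slc12a2* value was not tested. The ratio of *Slc12a5* to *Slc12a2* per kb, chosen after the values were seen and not tested, was 6.97, 6.91 and 6.03 in the vehicle libraries and 9.71, 6.28 and 6.89 in SP 1, 2 and 3, so that SP 1 alone was outside the vehicle range.

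None of the 3 scaffold genes passed the test, and each interval lay inside ±0.3. *Gphn*, which encodes gephyrin, had 68.1, 70.0 and 64.5 CPM in the vehicle libraries and 67.0, 70.8 and 68.0 CPM in those labelled SP, with a log2FC of 0.024 (95% interval -0.10 to 0.15). *Nlgn2*, the adhesion protein of inhibitory synapses, had 246, 236 and 239 CPM and 233, 249 and 242 CPM, with a log2FC of 0.0081 (95% interval -0.12 to 0.13). The groups overlapped for both. *Iqsec3*, which encodes an exchange factor that binds gephyrin, had 189, 201 and 195 CPM and 198, 219 and 198 CPM. Each SP library was above its numbered vehicle library, SP 2 most of all, and the log2FC was 0.070 (95% interval -0.047 to 0.19).

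SP 2 was the lowest of the 6 libraries for 8 of the 26 genes and the highest for 11, while SP 1 was the lowest for 4 and SP 3 for 3. Summed by role, the genes of GABA synthesis, transport and breakdown were at 84.2% of the vehicle mean in SP 2 and 108% in vehicle 2. The GABAA receptor subunits were at 97.0% in SP 2, the scaffold genes at 107% and the receptor's auxiliary proteins at 113%.

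Of 53 other genes of the GABA pathway, 49 were tested and 0 were called by edgeR. At an unadjusted p under 0.05, 2 were higher (4.08%, beside 4.48% of all genes tested) and 5 lower (10.2%, beside 5.59%), and the median log2FC was -0.011. DESeq2 with the block had 4 of them at that p, and DESeq2 with no block and limma-voom had 6 each. For these tools the share of all genes tested at that p was not counted. No gene of the other receptor subunits, of which 3 of 7 were tested, had that p by edgeR. Among the untested, *Gabra6*, known from cerebellar granule cells and named after its value was seen, had 93 counts in SP 1 and 0 to 4 in each other library.

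Among 20 trafficking and scaffold genes, 1 was higher and 2 were lower at that p. *Igsf9b*, an adhesion protein of inhibitory synapses, had 73.9, 73.9 and 75.5 CPM in the vehicle libraries and 62.8, 62.6 and 68.0 CPM in those labelled SP, and the groups were apart (log2FC -0.21, SE 0.0543, FDR = 0.351 by edgeR). *Mdga1*, which binds neuroligin-2 and limits its pairing with neurexin, had 82.8, 65.1 and 79.8 CPM and 91.4, 106 and 84.9 CPM, all SP values being higher (log2FC 0.31, SE 0.114, FDR = 0.440). The other lower gene, *Insyn2a*, named after its value was seen, encodes an inhibitory synaptic factor and had a log2FC of -0.26 (SE 0.113, FDR = 0.493).

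Among 6 partners and effectors of the GABAB receptor, 1 was higher. This was *Ajap1*, which encodes a membrane protein that binds the receptor's extracellular part, with 34.6, 36.1 and 33.8 CPM in the vehicle libraries and 45.9, 38.0 and 38.7 CPM in those labelled SP (log2FC 0.23, SE 0.0780, FDR = 0.429 by edgeR). Among 10 genes of chloride transport and its kinases, 2 were lower, both of them kinases upstream of the cotransporters. *Stk39* had 82.3, 80.5 and 93.4 CPM and 56.4, 71.2 and 88.9 CPM (log2FC -0.26, SE 0.0905, FDR = 0.429). It was lowest in SP 1, which had the lowest *Slc12a2* and summed choroid plexus markers at 4.23% of the vehicle mean. The part of choroid plexus tissue in the *Stk39* value was not tested. *Wnk3* had 33.9, 34.7 and 36.6 CPM and 31.1, 30.4 and 32.1 CPM, with the groups apart (log2FC -0.17, SE 0.0611, FDR = 0.436). Among 10 genes of transport and metabolism, 1 was lower: *Maob*, a monoamine oxidase of glia, at 25.2, 26.6 and 27.5 CPM and 19.2, 23.6 and 25.7 CPM (log2FC -0.22, SE 0.0800, FDR = 0.439), with SP 3 inside the vehicle range.

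A few ratios between members are given as descriptions, since they were chosen after their values were seen. *Gad1* to *Gad2* per kb was 1.69, 1.54 and 1.66 in the vehicle libraries and 1.78, 1.78 and 1.77 in those labelled SP. *Gabrb1* to *Gabra4*, neighbours on chromosome 5 whose spans overlap, was 1.05, 1.00 and 1.10 against 0.935, 0.945 and 0.942. *Gabra5* to *Gabra3* was 3.04, 3.41 and 3.22 against 3.94, 7.06 and 3.39. The first of these was higher and the second lower in all SP libraries than in all vehicle libraries, and the third overlapped.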

How the data were processed

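Each of the 6 libraries is hippocampal RNA of 1 mouse, and groups were taken from the labels. Reads were processed by the authors with TrimGalore (trimming), STAR (alignment, GRCm38) and Salmon (quantification), and they deposited estimated counts per gene, scaled neither for library size nor for length. The annotation release and strand setting are not given in the sources used here. As 9.77% of values were not whole, counts were rounded. Genes were kept by filterByExpr (minimum count 10, minimum total 15), which left 17069, including all 26 GABA synapse genes. Testing used edgeR 4.0.16 in R 4.3.3, with TMM, glmQLFit and glmQLFTest, the replicate number as a block, and Benjamini-Hochberg adjustment over all genes tested. Calls needed FDR < 0.1 and |log2FC| > 0.3, as in the paper. CPM are relative to normalized library sizes, and 95% intervals come from the standard error and the quasi-likelihood degrees of freedom. Lengths and positions are from GENCODE M21, which holds all 26 genes, and promoter windows from RefSeq.

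The labels used here give a batch number, equal to the replicate number, for the vehicle libraries, and titles number the SP libraries. That number was taken as a block because the paper adjusted for replicates. No label used here says that mice were paired. The deviations of same-numbered libraries from their group means correlated at 0.014, -0.066 and 0.073 across genes. With 3 against 3 mice an exact permutation test that ignores the replicate numbers cannot go below p = 0.1. Within replicate numbers its floor is higher still, so no such test was used. The p-values of the main fit rest on the spread between mice left after the replicate block, with edgeR sharing information on spread across genes. Alternatives were DESeq2 1.42.0 with and without the block, limma-voom (limma 3.58.1), no block, relative log expression, no filter, at least 10 counts in every library, no minimum fold change, and each replicate number left out. Leaving out SP 1 or SP 2 alone was added after seeing the data. The fits were tested on simulated data. The genes and the lists were chosen with earlier results of these data known. All 26 genes are named, and of the other pathway lists up to 2 genes with the lowest unadjusted p, if under 0.05. Named outside that rule, after their values were seen, were *Insyn2a*, *Gabra6* and the markers *Ttr*, *Kcnj13*, *Clic6*, *Kl*, *Erbb4*, *Vip*, *Tshz2* and *Cplx3*. Some receptor genes of the same family are not reported here. At an unadjusted p under 0.05 the marker lists of oligodendrocytes (5 higher), cortical layers (3 lower), dentate granule cells (1 higher), astrocytes (1 lower), CA1 (1 higher, 1 lower), CA3 (3 higher, 1 lower), striatal neurons (1 lower), thalamic neurons (0) and oligodendrocyte precursors (0) held the counts given.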

Additional observations from a re-analysis of the deposited data

How the results depend on the processing

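No gene of the 26 was called when the replicate block was left out, and with no replicate block 1 was higher and 2 lower at an unadjusted p under 0.05, 6 other pathway genes passed that p, and the median log2FC was 0.0099, so the block changed no call. With no filter on low counts 1 gene (*Gabra3*) was called and 15 other pathway genes had an unadjusted p under 0.05. DESeq2 with the block had 0 higher, 0 lower and 4 other pathway genes at that p. With relative log expression library sizes, 2 genes were higher with no overlap, and with the longest transcript as length 3 of the 5 highest genes stayed among the 5 highest. The cause was not tested for any of these. The share of all genes tested at an unadjusted p under 0.05 was counted for the main fit alone.

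When each replicate number was left out in turn, 0 genes were called each time, 0 to 2 were higher and 2 to 4 lower at an unadjusted p under 0.05, 3 to 12 other pathway genes passed that p, and the median log2FC was -0.031 to 0.022. Without SP 1 alone and with no block, 1 gene was higher, 1 was lower and the median was -0.0066. Without SP 2 alone and with no block, 0 were higher, 3 were lower and 11 other pathway genes passed. These alternatives rest on fewer libraries.

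Over the other settings, 181 of 182 gene values kept their direction and call, and the exception was *Gabra3* with no filter. When libraries were left out, 23 of 130 values changed sign, in 12 of the 26 genes. With each replicate number left out, log2FC ranged from -0.010 to 0.037 for *Gabra2*, -0.25 to 0.11 for *Gabrg1*, -0.14 to 0.21 for *Gabrd*, -0.044 to 0.089 for *Gabbr2*, -0.17 to 0.070 for *Gad1*, -0.22 to 0.16 for *Slc32a1*, -0.061 to 0.10 for *Slc6a11*, -0.0063 to 0.047 for *Gphn*, -0.028 to 0.050 for *Nlgn2*, -0.30 to 0.0098 for *Slc12a2*, -0.44 to 0.16 for *Kctd8* and -0.0091 to 0.026 for *Lhfpl4*. In other genes the range was -0.32 to -0.016 for *Gad2*, -0.16 to -0.0092 for *Abat*, -0.14 to -0.0053 for *Gabrg3*, 0.044 to 0.094 for *Iqsec3* (0.022 without SP 2 alone), 0.0049 to 0.036 for *Gabbr1* and 0.0095 to 0.037 for *Slc12a5*. The sign also changed without SP 1 alone for *Gabrd* (-0.036), *Slc6a11* (-0.016) and *Slc12a2* (0.041), and without SP 2 alone for *Gabbr2* (-0.0080), *Gad1* (0.018), *Slc32a1* (0.047), *Nlgn2* (-0.015), *Kctd8* (0.082) and *Lhfpl4* (-0.018). Counts were lowest for *Kctd8* (102 in SP 2), whose interval was the widest.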
